A study of Rattus norvegicus with 35 samples.

Results

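The 4 genes Aoc3, Trarg1, Ces1d and Sncg, which are tied to fat cells but seldom used as markers of them, were followed across rat mammary tumours and normal mammary glands. The 4 were chosen by their large fall in the tumours, seen in earlier results of the same arrays, from 10411 genes measured, so that fall is described here without a test. The 24 tumours were induced with NMU (N-methyl-N-nitrosourea, which alkylates DNA) and were stored frozen. The 11 normal glands comprised 8 titled NewN and 3 others, titled X27.1N, X28.1N and Young. The labels give no strain, age, dose or time after NMU for either group, and do not say how the glands were kept or which samples came from 1 animal. Samples from 1 animal would not be independent. The p-values rest on the spread of these samples alone, which may then be too small or partly technical.

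Each sample was read on a 1-colour oligonucleotide array of the RAE230A design, on which several short probes, together a probe set, give 1 brightness value for a transcript. That value is called the signal below. The array medians lay between 158 and 176, and a signal of 41.6, the 10th percentile of all values, served as the floor under which values were not ordered. Log2 values are of signals raised to that floor. Precision is limited by how many arrays each group holds. Each of the 4 genes had 1 probe set that carries its symbol alone. A further 4 probe sets carry the symbols of Aoc3, Psme3 and G6pc1 together and were not used.

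White adipocytes surround the epithelial ducts of the mammary gland and make up much of its volume. They store triglyceride in a droplet coated by perilipin, release it through lipases, and take up glucose through the transporter GLUT4 when insulin acts on them. Aoc3 encodes a copper amine oxidase on the cell surface, also called vascular adhesion protein 1, which adipocytes, smooth muscle and endothelium carry. Trarg1 encodes a membrane protein that regulates GLUT4 trafficking. Ces1d encodes a carboxylesterase that hydrolyses triacylglycerol. Sncg encodes gamma-synuclein, which is found in adipocytes and in peripheral neurons. Fabp4, which encodes the adipocyte's fatty acid binding protein, and Plin1, the perilipin of their lipid droplet, served as yardsticks.

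All 4 genes were bright in every normal gland and dim in nearly all tumours. For each of the 4, all 24 tumours lay below every normal gland. Of all probe sets 58.2% were called between the groups. No overlap in this direction held for 323 of 15866 probe sets (2.04%), and nothing is read from the count of 4, since this contrast chose the genes. With the floor at 41.6, Fabp4 had the largest fall of all 10411 genes, and Aoc3, Trarg1, Ces1d and Sncg took places 3, 6, 7 and 11, with Plin1 at 24. These places depend on the floor, since many tumours were under it: without a floor Trarg1 (-10.15) fell further than Aoc3 (-7.18), and with the floor at the 20th percentile Sncg (-4.77) fell further than Ces1d (-4.61) and Trarg1 (-4.52). In whole tissue, fewer cells of a type and less RNA per cell cannot be told apart.

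Some measures of the arrays moved with the groups, and their part in the falls was not tested. The Gapdh control probe sets gave a 3' over 5' ratio, a sign of RNA breakdown when high, of 1.02 ± 0.0795 in tumours and 1.13 ± 0.126 in normal glands (SD, n = 24 and 11). The 90th percentile of signal was 596 ± 46.1 in tumours and 718 ± 38.6 in normal glands. Of 28 adipocyte genes measured (the 4 not among them), 26 were lower in tumours, 1 was higher and 1 did not pass, against 27.5% of all genes lower and 31.4% higher. Their summed signal was 4219 to 14052 in tumours and 31491 to 73988 in normal glands. After Fabp4 the largest changes among them were those of Cfd (-6.10), which encodes adipsin, Rbp4 (-5.79), a retinol carrier, and Cd36 (-5.03), a fatty acid transporter. Lep, the gene of leptin, was at the floor in all 24 tumours.

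Aoc3 had a signal of 1 in the lowest tumours, a median of 29.7 and a highest value of 612 in tumour X15. In normal glands its lowest signal was 1847 (X27.1N), its median 4319 and its highest 5110 (NewN1). The means were 86.0 ± 156 in tumours and 4095 ± 1018 in normal glands (SD, n = 24 and 11), a log2 change of -5.92 (SE 0.33). The tumours spread widely for this gene: 14 were at the floor, while X15 (612) and X10 (537) stood apart from the next, X25L (150). The lowest gland was 3.02 times as bright as the highest tumour.

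Other genes of amine oxidation changed less than Aoc3, as the choice of Aoc3 by its large fall makes likely. Of 10 measured, 7 were lower in tumours, 2 higher and 1 did not pass at a limma adjusted p under 0.05, with a median log2 change of -0.78 against 0.02 over all genes, of which 27.5% were lower and 31.4% higher. Against the other glands alone 3 were lower, 1 was higher and 6 did not pass. Catalase (Cat), which removes the hydrogen peroxide that amine oxidases release, fell by 1.80 on the log2 scale. Loxl1 (-1.73) and Lox (-1.28), copper amine oxidases that cross-link collagen and elastin, were lower, as was Aldh3a2 (-1.07), an aldehyde dehydrogenase. The call of Lox was lost against the NewN glands alone (adjusted p = 0.145) and against the other glands alone (0.137), where Loxl1 was not called either (0.124). Aoc1, the diamine oxidase, went the other way from Aoc3 and was higher in tumours (0.66, SE 0.13, adjusted p = 3.76e-05). That rise did not pass against the other glands alone (0.15, adjusted p = 0.685).

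Endothelium and smooth muscle also carry Aoc3, and their marker genes moved with it in part. Beside 27.5% of all genes lower and 31.4% higher, 13 of 16 endothelial genes were lower in tumours, 1 higher and 2 did not pass. Their summed signal was 2575 to 5169 in tumours and 4974 to 7000 in normal glands. Of 14 smooth muscle genes, 9 were lower and 5 did not pass, with sums of 4268 to 18074 in tumours and 7850 to 16711 in normal glands. The sums of both lists overlapped between the groups. Their medians in tumours and normal glands were 3277 and 6529 for endothelium, and 7040 and 12669 for smooth muscle. Against the other glands alone, 1 smooth muscle gene was lower and 13 did not pass. Of the endothelial genes, 11 were lower there and 5 did not pass. The median smooth muscle sum was 7888 in the other glands and 13224 in the NewN glands. The part of endothelium and smooth muscle in the fall of Aoc3 was not tested.

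Trarg1 was at a signal of exactly 1, the lowest value deposited, in 22 of the 24 tumours. Its median in tumours was 1 and its highest value 177 (X15), with 36.6 in X10, which is under the floor. In normal glands its lowest signal was 545 (X27.1N), its median 1907 and its highest 2567 (X28.1N). Only X15 gave a measurable signal among tumours, and even there it was 3.07 times dimmer than in the dimmest gland. The means were 9.84 ± 36.4 in tumours and 1764 ± 612 in normal glands (SD, n = 24 and 11). The log2 change was -5.21 (SE 0.18), and its size is set by the floor: it was -10.15 without one and -4.52 with the floor at the 20th percentile.

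Most of the machinery that moves GLUT4 changed far less than Trarg1. Since Trarg1 was chosen for its large fall, nothing is read from this contrast. Of 26 measured genes of GLUT4 traffic and insulin signalling, 15 were lower in tumours, 4 higher and 7 did not pass, with a median log2 change of -0.26. The shares over all genes were 27.5% lower and 31.4% higher. Against the other glands alone 7 were lower and 1 higher, and after quantile normalization 11 were lower and 5 higher. The largest falls were those of Cav1 (-2.59), the coat protein of caveolae, and Grb10 (-2.53), an adaptor that binds the insulin receptor. Irs3, an insulin receptor substrate of rodent fat, followed (-1.91), and Slc2a4, which encodes GLUT4 itself, had a log2 change of -1.29 (SE 0.12). Slc2a4 had a signal of 67.8 to 164 in tumours and 171 to 365 in normal glands, so these groups did not overlap either. The calls of these 4 genes held with quantile normalization, without a floor, against either set of glands, and without X15, without X22L, or without NewN4, NewN6 and X27.1N. Grb10 changed by -6.51 without a floor.

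Ces1d had a lowest signal of 13.2 (X32), a median of 37.2 and a highest value of 232 (X15) in tumours. In normal glands the lowest was 774 (X27.1N), the median 1969 and the highest 2632 (X28.1N). The means were 45.8 ± 42.2 in tumours and 1875 ± 587 in normal glands (SD, n = 24 and 11), a log2 change of -5.21 (SE 0.19). In tumours 16 arrays were at the floor, and after X15 the next was X28 at 79.4. With the floor at the 20th percentile the change was -4.61.

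The other carboxylesterases on the array showed no like fall, but Ces1d was chosen for the size of its fall. Of 4 measured, 1 was lower in tumours, Ces2c (-0.67, SE 0.10), and 3 did not pass. Ces1e, of the same family, had a signal of 65.9 to 160 in tumours and 96.0 to 203 in normal glands (log2 change -0.19, adjusted p = 0.123). Ces1c was at the floor in 13 tumours and 9 glands. The triacylglycerol lipases and their cofactors fell with Ces1d: of 15 measured, 13 were lower in tumours and 2 did not pass, with a median log2 change of -1.86. Plin1 is in this list and in the adipocyte list, and Lipe, named below, is also an adipocyte marker, so the lists are not independent. Of all genes, 27.5% were lower and 31.4% higher. Pnpla2, which encodes adipose triglyceride lipase, changed by -4.65 (SE 0.25). The droplet protein Plin4 (-4.52) and hormone-sensitive lipase, Lipe (-4.24), lay close to it. Plin2, which coats droplets in many cell types, did not pass (0.03, adjusted p = 0.929).

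Sncg kept a signal above the floor in every tumour. Its lowest signal in tumours was 117 (X17), its median 196 and its highest 870 (X15), and X6 came next at 408. In normal glands the lowest was 1716 (X27.1N), the median 6947 and the highest 8513 (X28.1N). The means were 232 ± 149 in tumours and 6187 ± 2121 in normal glands (SD, n = 24 and 11), a log2 change of -4.77 (SE 0.22). The gap between the groups was the narrowest of the 4, with the lowest gland 1.97 times as bright as the highest tumour.

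Of 9 measured genes of synucleins and the proteins they bind, 5 were higher in tumours, 2 lower and 2 did not pass, against 31.4% of all genes higher and 27.5% lower, with a median log2 change of 0.29. Snap25 (1.28), a synaptic membrane fusion protein, and Uchl1 (0.99), a neuronal ubiquitin hydrolase, were the largest rises. After quantile normalization 6 were higher and 0 lower. Against the other glands alone 1 of the 9 was called, and the rise of Snap25 was not (0.80, adjusted p = 0.134). Sncb, the beta-synuclein gene, had a signal of 34.9 to 266 in tumours and 80.5 to 239 in normal glands and did not pass (-0.10, adjusted p = 0.701). Of 13 nerve and Schwann cell genes, 5 were higher in tumours, 4 lower and 4 did not pass, beside 31.4% and 27.5% of all genes higher and lower. The largest change among these was that of S100b (-5.27), a calcium-binding protein that adipocytes also express, with a signal of 37.5 to 466 in tumours and 1082 to 5613 in normal glands. The myelin genes Pmp22 (-2.08) and Mbp (-1.99) were also lower, and Mbp was at the floor in all 24 tumours. The 5 higher genes changed by 0.25 to 0.99. The summed nerve and Schwann cell signal was 1751 to 4072 in tumours and 4007 to 10274 in normal glands. S100b is a large part of the gland sums, with 5613 of 10274 in NewN1 and 1082 of 4007 in X27.1N. The part of nerve in the fall of Sncg was not tested.

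**Figure D1:**
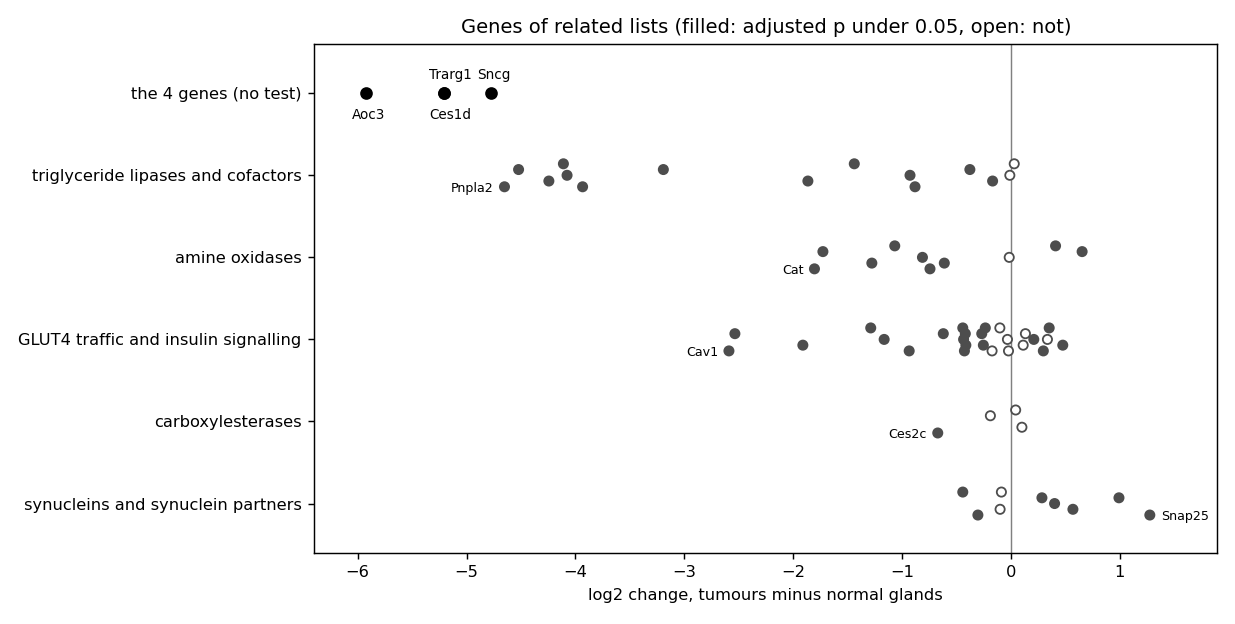
Log2 change, tumours minus normal glands, of the 4 genes (top, no test) and of each measured gene in 5 related lists, filled where the limma adjusted p was under 0.05. The triglyceride lipases reach furthest toward the 4 genes (Pnpla2, -4.65), while the amine oxidases, GLUT4 genes, carboxylesterases and synuclein partners lie nearer 0. The 4 genes were chosen for their large fall, so their distance from the lists is not a result.

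**Figure D2:**
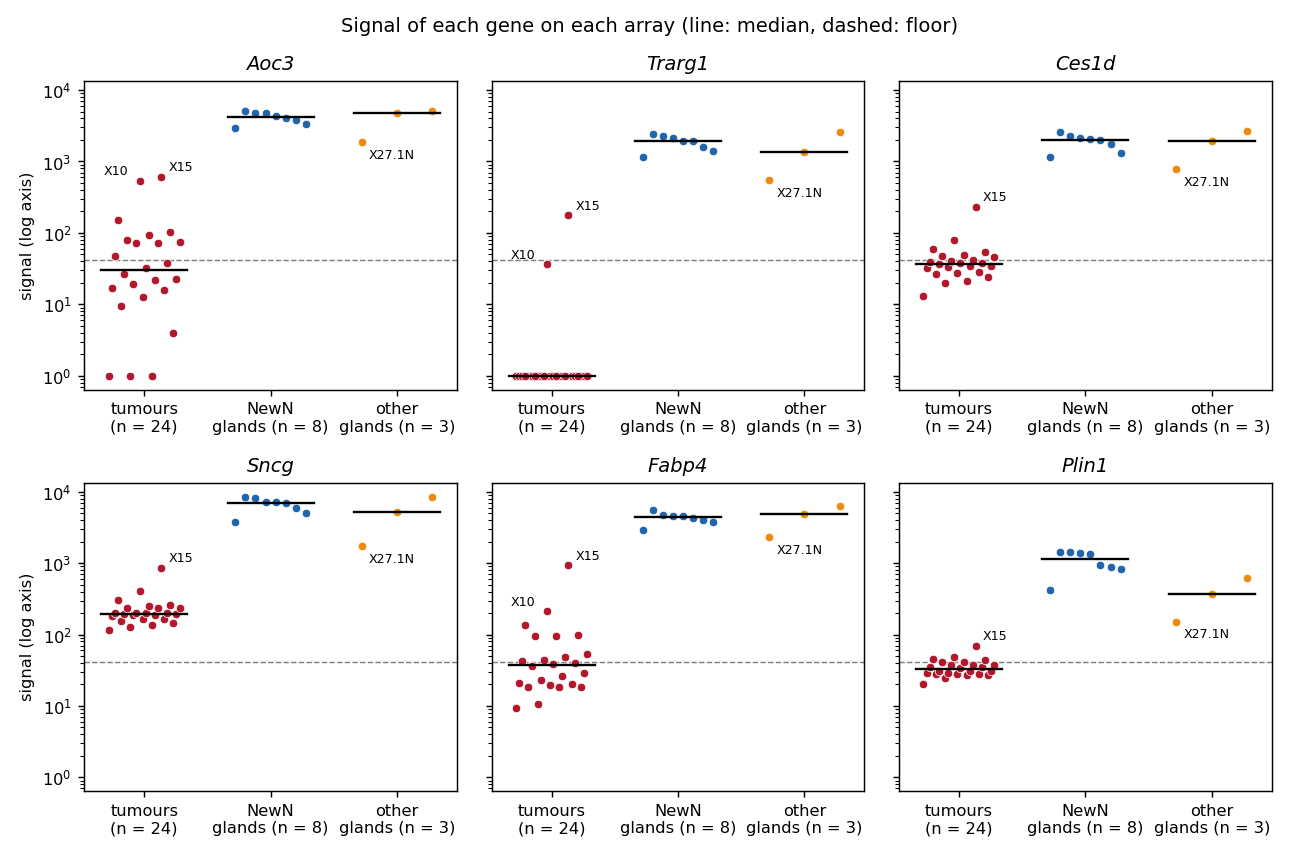
Signal of the 4 genes, Fabp4 and Plin1 on each array (log axis), with 1 point an array, a line at the median of each set and a dashed line at the floor of 41.6. All 24 tumours lie below the 8 NewN and 3 other normal glands in each panel, X15 is the brightest tumour in all 6, and X27.1N is the dimmest gland.

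Among the tumours X15 was the brightest for all 4 genes and for Fabp4 and Plin1. As a share of the mean of the normal glands, X15 held 14.9% of Aoc3, 10.1% of Trarg1, 12.4% of Ces1d, 14.1% of Sncg, 21.3% of Fabp4 and 7.80% of Plin1. The median tumour held 0.726% of Aoc3, 1.99% of Ces1d, 3.17% of Sncg and 0.854% of Fabp4, where all but the Sncg value are under the floor. X15 was also the brightest tumour for 16 of 27 adipocyte genes (59.3%) that were above the floor in any tumour, against 4.16% of all 10263 such genes. Its summed adipocyte signal was 14052, against a median of 5143 over the tumours and 31491 in the lowest gland. X15 was further the brightest for 6 of 16 endothelial genes and had the highest lymphocyte sum of all tumours, 6902 against a median of 3503.

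X10 came second for Aoc3 and for Fabp4 (212, with X11 next at 137) and at place 3 for Sncg, but not to the same degree. It held 13.1% of the normal mean of Aoc3, close to X15, but 2.52% of Ces1d, 4.99% of Sncg and 4.85% of Fabp4. X10 was the brightest tumour for 0 of 27 adipocyte genes and 3 of 16 endothelial genes, against 2.50% of all genes, and its summed endothelial signal was 4024, against a tumour median of 3277. Tumours X8, X9 and X22L had Aoc3 above the floor (102, 79.8 and 74.2) with Fabp4 under it (28.5, 18.7 and 36.1). X6 held 6.59% of Sncg, the second highest, while its Fabp4 signal of 19.5 was under the floor. X6 was the brightest tumour for 0 of 27 adipocyte and 0 of 12 nerve genes, against 2.56% of all genes. With so low a share, nothing is read from these counts of 0.

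**Figure D3:**
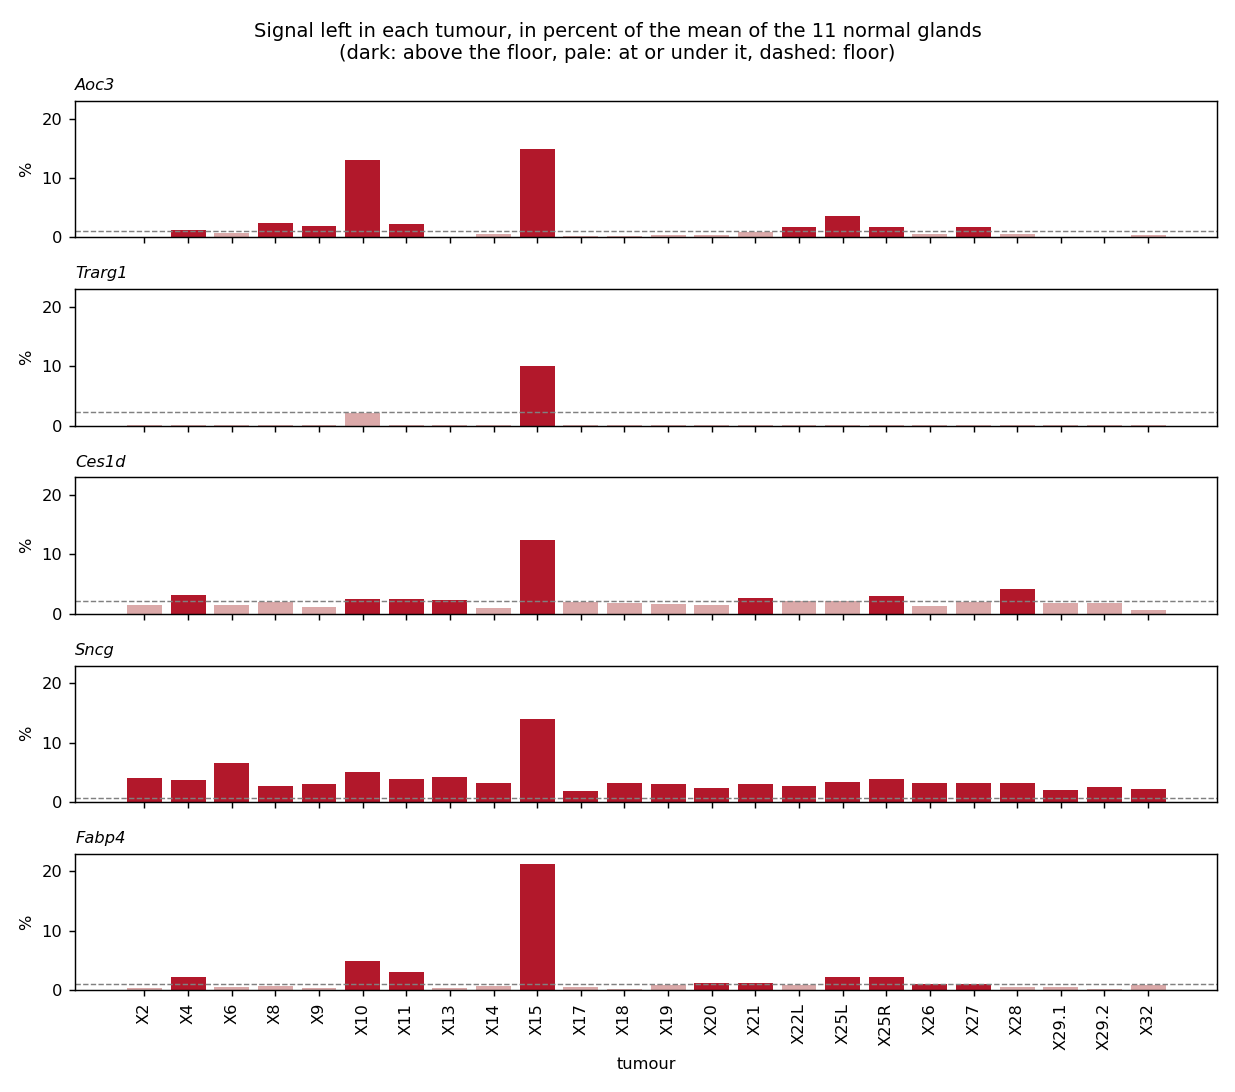
Signal of each tumour in percent of the mean of the 11 normal glands, for the 4 genes and Fabp4, with dark bars above the floor, pale bars at or under it and the floor dashed. X15 stands out in all 5 panels (10.1% to 21.3%), X10 most for Aoc3 (13.1%), and Sncg is above the floor in every tumour.

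Each gene was then related to Fabp4 within the tumours, so that the difference between the group means did not enter the fit. The tumours are among the arrays by which the 4 genes were chosen, so the relation is not independent of that choice. Fabp4 itself was above the floor in 10 tumours. The other 14 were at the floor and share 1 value of it, so the relation rests mostly on those 10. With Fabp4 as a covariate in limma, all 4 genes were called, with slopes of 0.89 for Aoc3 (SE 0.11, adjusted p = 0.000154), 0.39 for Ces1d (SE 0.06, 0.00197), 0.31 for Trarg1 (SE 0.05, 0.00231) and 0.42 for Sncg (SE 0.07, 0.00619). A slope is the log2 change per unit of log2 Fabp4. Of 15865 probe sets, 39 were called (0.246%). Of 27 adipocyte genes, 6 were called, all with a positive slope, against 0.25% of all genes. Without a floor none of the 4 was called (adjusted p = 0.0608 for Aoc3, 0.384 for Ces1d, 0.460 for Trarg1 and 0.460 for Sncg), and with the floor at the 5th percentile Sncg was not (0.0630). Without X15 limma called 0 of all probe sets. Aoc3 then kept a slope of 0.99 (adjusted p = 0.112), while Ces1d had 0.10 and Sncg 0.25 (adjusted p = 1 for both). Trarg1 was then at the floor in every tumour and could not be fitted.

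Aoc3 also had the highest correlation with Fabp4 of the 4 genes. Pearson's r with Fabp4 over the 24 tumours was 0.858 for Aoc3, with Spearman's rho of 0.605 (permutation p = 4e-05 and 0.00238, adjusted over 24 relations 0.00030 and 0.00952). It was 0.789 for Ces1d (rho 0.592, permutation p = 0.00446 and 0.00234, adjusted 0.00765 and 0.00952). It was 0.754 for Sncg (rho 0.470, permutation p = 0.00123 and 0.0216, adjusted 0.00328 and 0.0432). Without the 2 tumours farthest from the median, X15 and X10, r was 0.541 for Aoc3, 0.317 for Ces1d and 0.268 for Sncg. Without X15 alone, Aoc3 had r of 0.760 and rho of 0.535 (permutation p = 0.00077 and 0.00802, not adjusted). Ces1d then had r of 0.290 and rho of 0.514 (permutation p = 0.108 and 0.00866, not adjusted), and Sncg had r of 0.417 and rho of 0.389 (permutation p = 0.0490 and 0.0683, not adjusted). Trarg1 had 1 tumour above the floor, so its r of 0.786 (rho 0.387, permutation p = 0.0416 and 0.043, adjusted 0.0456 and 0.0737) rests on that tumour. Plin1 was above the floor in 4 tumours, and with it as covariate Trarg1, Ces1d and Sncg were called (30 of 15865 probe sets, 0.189%), Aoc3 was not (adjusted p = 0.363), and without X15 neither Ces1d (adjusted p = 0.555) nor Sncg (0.766) was.

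Ranked by Pearson's r over the 24 tumours, Fabp4 was the third of 10262 genes nearest to Aoc3. Cygb (0.872), a globin of fibroblast-like cells, and Efemp1 (0.870), a matrix glycoprotein, came first, and Ptprb (0.846), a phosphatase of endothelium, and Pi16 (0.844) followed. Without X15 the nearest were Grb10 (0.842), Efemp1 (0.839), Pdgfrl, Qpct and Pi16, with Fabp4 at place 17 (0.760). Of these Grb10 and Pi16 were above the floor in 2 tumours each and Pdgfrl in 3. For Sncg the nearest were Akr1c14 (0.770), Fabp4 (0.754), Alb, Slc4a10 and Olr1, of which Alb was above the floor in 2 tumours and Slc4a10 and Olr1 in 1 each. Without X15 they were Csn2 (0.761), the beta-casein gene, Cd320 (0.756), Ivl, Wap, a whey protein of milk, and Tsr2. Of the remaining 23 tumours, Wap was above the floor in 3 and Csn2 in 14. For Ces1d the 5 nearest, Alb, Slc4a10, Olr1, Ocm and Rbp4, were above the floor in 1 or 2 tumours. Without X15 Ambp, above the floor in 2 tumours, and Cldn11 came first. These ranks are a description over arrays that share their normalisation.

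In the normal glands the 4 genes were lowest in glands with many lymphocyte transcripts. NewN4, NewN6 and X27.1N had Cd79b signals, a part of the B cell receptor, of 809, 1111 and 1013, while no other gland was over 42.9. Aoc3 was 3389, 2975 and 1847 in these 3 glands, against 3842 or more in the others. Ces1d was 1305, 1141 and 774, against 1785 or more. Sncg was 5069, 3796 and 1716, against 5158 or more. For these genes the 3 glands were the lowest of the 11. For Trarg1 the 3 glands read 1418, 1149 and 545, and Young, with 1376, lay among them. The summed lymphocyte signal of the 3 glands was 11247 to 16378, and their part in the lower values was not tested.

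The normal glands, like the tumours, are among the arrays by which the 4 genes were chosen. Relations to Fabp4 or Plin1 within them are therefore not independent of that choice. With Fabp4 as covariate within the 11 normal glands, limma called all 4 genes. The slopes were 1.01 for Aoc3 (SE 0.12, adjusted p = 0.00274), 1.43 for Trarg1 (SE 0.21, 0.00456), 1.29 for Ces1d (SE 0.10, 0.000344) and 1.51 for Sncg (SE 0.22, 0.00463). Of 15865 probe sets, 1391 were called (8.77%), of which 63.1% had a positive slope, and 53.1% after quantile normalization. Among the lists, 19 of 27 adipocyte genes were called with a positive slope, against 6.16% of all genes, while 8 of 12 lymphocyte genes were called with a negative one, against 3.74%. Within the 8 NewN glands alone the 4 genes were again called (slopes of 0.85 to 1.44, adjusted p of 0.0129 to 0.0459). Without NewN4, NewN6 and X27.1N none of the 4 was called, with slopes of 0.44 to 0.86, and 0 probe sets were called in all. Without X27.1N alone, Trarg1 was not called (1.05, adjusted p = 0.0522).

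Ces1d had the highest Pearson's r with Fabp4 of the 4 genes here, and Aoc3 the highest Spearman's rho. Over the 11 glands its Pearson's r with Fabp4 was 0.971 and its rho 0.900 (permutation p = 1e-05, the smallest the permutations can give, and 0.00039, adjusted 0.00024 and 0.00238). It was 0.888 without X27.1N and NewN6, the glands farthest from the median, and 0.966 within the 8 NewN glands (exact permutation p = 4.96e-05, adjusted 0.00030). In the 8 glands poor in lymphocyte transcripts it was 0.884 (exact permutation p = 0.00382, not adjusted). Aoc3 had r of 0.934 over the 11 glands (rho 0.927, permutation p = 5e-05 and 0.00012, adjusted 0.00030 and 0.00238) and 0.752 without the same 2 glands. Trarg1 had 0.910 (rho 0.800, permutation p = 0.00022 and 0.00445, adjusted 0.000823 and 0.0122) and 0.683 without them. Sncg had 0.909 (rho 0.818, permutation p = 0.00024 and 0.0032, adjusted 0.000823 and 0.0110) and 0.643 without them. In the 8 lymphocyte-poor glands r was 0.613 for Aoc3, 0.565 for Trarg1 and 0.483 for Sncg (exact permutation p = 0.105, 0.139 and 0.222).

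Trarg1 and Sncg kept nearest to each other rather than to Fabp4. Over the normal glands each was the other's nearest of 10122 genes (r = 0.993). In the 8 lymphocyte-poor glands r was 0.981, where Sncg was the third nearest to Trarg1 and Trarg1 the nearest to Sncg. The gland titled Young shows it: there Fabp4, at 4931, was above its gland median of 4556, while Trarg1 (1376 against 1907) and Sncg (5158 against 6947) were well below theirs. After Sncg, the genes nearest to Trarg1 were Mtarc2, a mitochondrial reductase, S100b, Iqsec1 and Pnpla2 (0.984 to 0.989). After Trarg1, those nearest to Sncg were Iqsec1, Gsn, which encodes gelsolin, Car3, a carbonic anhydrase abundant in fat, and S100b (0.985 to 0.989). Ces1d was nearest to Dlc1 (0.988), Mgll, which encodes monoglyceride lipase, Plin4, Csad and Pfkfb3. Aoc3 was nearest to Grn (0.975), Dcn, a matrix proteoglycan, Sod3, the extracellular superoxide dismutase, Lpl, lipoprotein lipase, and Mgll. Without the 3 lymphocyte-rich glands the 5 nearest to Aoc3 were led by Cmtm7 (0.987), and Fabp4 took place 568 of 10067.

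The NewN glands and the 3 other normal glands did not differ beyond their spread for any of the 4 genes. Aoc3 was 2975 to 5110 in NewN glands, and 1847, 5073 and 4799 in X27.1N, X28.1N and Young. Trarg1 was 1149 to 2453 in NewN glands, and 545, 2567 and 1376 in the same 3. Ces1d was 1141 to 2578 in NewN glands, against 774, 2632 and 1930. Sncg was 3796 to 8404 in NewN glands, against 1716, 8513 and 5158. In each gene X27.1N was the dimmest gland of all, and X28.1N was the brightest gland for all but Aoc3. The 3 others as a set thus reached beyond the NewN range at both ends, and for Aoc3 at the low end only.

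The log2 difference, NewN minus other glands, was 0.21 for Aoc3 (SE 0.29), 0.54 for Trarg1 (SE 0.40), 0.23 for Ces1d (SE 0.36) and 0.60 for Sncg (SE 0.42). Limma called 0 of the 4 (adjusted p of 0.343 to 0.719, unadjusted p of 0.180 to 0.536), while 21.1% of all probe sets were called. The exact permutation p over 165 splits of the glands was 0.552, 0.248, 0.594 and 0.224, two-sided, where 0.00606 is the smallest possible. All 4 differences turned negative without X27.1N (-0.27, -0.0509, -0.28 and -0.0509). The Gapdh 3' to 5' ratio was 1.17 ± 0.125 in NewN glands and 1.03 ± 0.0590 in the other glands (SD, n = 8 and 3).

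Plin1 parted from the 4 genes here, and was the 1 gene called of 28 adipocyte genes measured. The other 27 did not pass, while 21.1% of all probe sets were called. It averaged 1085 ± 370 in NewN glands and 378 ± 231 in the other glands (SD, n = 8 and 3), a log2 difference of 1.64 (SE 0.46, limma adjusted p = 0.0303, exact permutation p = 0.0121). As a ratio to Plin1, each of the 4 genes was lower in NewN glands. The log2 ratio differed by -1.44 for Aoc3, -1.10 for Trarg1, -1.41 for Ces1d and -1.04 for Sncg, and by -1.61 for Fabp4. In each case all 3 other glands lay above every NewN gland, with an exact permutation p of 0.00606, the smallest that 165 splits allow. This ratio was examined after the difference in Plin1 had been seen, and it carries that difference.

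With Plin1 as covariate in the normal glands, limma called Trarg1 (slope 0.52, SE 0.11, adjusted p = 0.0178) and Sncg (0.56, SE 0.11, 0.0122). Aoc3 (0.30, adjusted p = 0.0699) and Ces1d (0.37, 0.0668) did not pass, but both did with the floor at the 5th percentile (adjusted p = 0.0499 and 0.0459) and without a floor (0.0496 and 0.0461). Of 15865 probe sets 2110 were called (13.3%). In the NewN glands alone neither Trarg1 (adjusted p = 0.106) nor Sncg (0.0651) was called. Without X27.1N neither Trarg1 (0.30, adjusted p = 0.319) nor Sncg (0.32, 0.262) was called. Without the 3 lymphocyte-rich glands the slopes of Aoc3 and Ces1d turned to -0.0906 and -0.0378. Over the 11 glands r with Plin1 was 0.849 for Sncg, 0.825 for Trarg1, 0.698 for Ces1d and 0.693 for Aoc3 (permutation p = 0.00302, 0.00425, 0.0196 and 0.0253, adjusted 0.00698, 0.00765, 0.0277 and 0.0304). Spearman's rho was 0.582, 0.573, 0.482 and 0.218, with adjusted permutation p of 0.104, 0.107, 0.171 and 0.521, so none of these ranks passed. Without X27.1N and Young, the glands farthest in Plin1, r was 0.575, 0.462, 0.428 and 0.446.

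**Figure D4:**
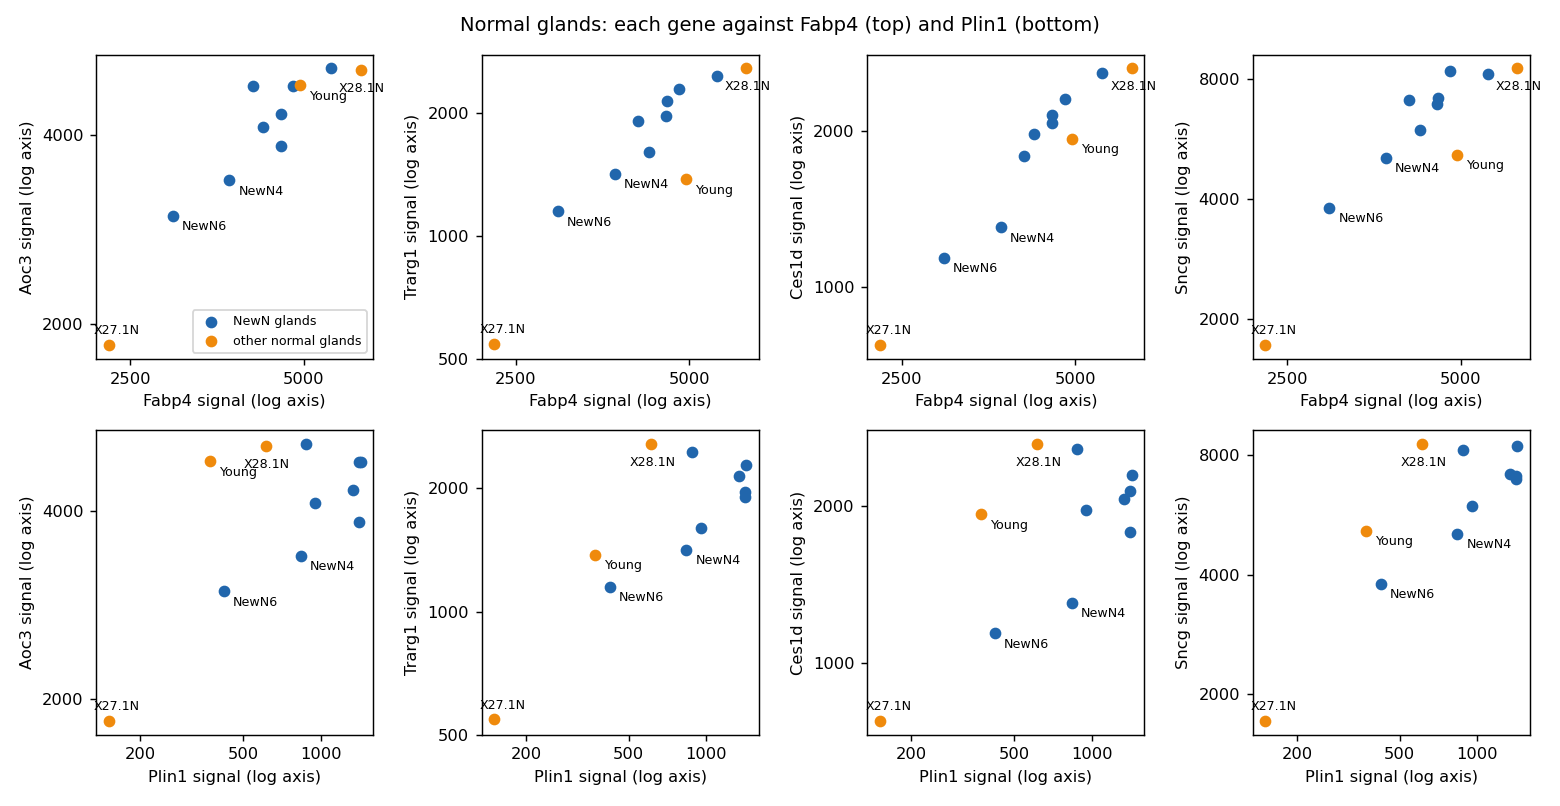
Signal of each of the 4 genes (vertical, log axis) against Fabp4 (top row) and Plin1 (bottom row) in the 8 NewN and 3 other normal glands. Against Fabp4 the glands lie along a line with X27.1N at its low end, and Young lies under it for Trarg1 and Sncg. Against Plin1 each of the 3 other glands lies above the NewN glands relative to its Plin1 signal, although NewN6 (422) has less Plin1 than X28.1N (612).

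The 250 bases before the start of a gene are shown for the 2 of the 4 genes in the RefSeq promoter table used here (assembly GRCr8), Ces1d and Sncg, with Plin1 beside them, because all 3 were lower in the tumours, while Plin1 differed between the sets of normal glands. Ces1d lies on the plus strand at chr19:30046244-30046493, Sncg on the minus strand at chr16:9711337-9711586 and Plin1 on the minus strand at chr1:143086149-143086398. Each is written 5′ to 3′ along its gene, with the motif matches in capitals.
Ces1d: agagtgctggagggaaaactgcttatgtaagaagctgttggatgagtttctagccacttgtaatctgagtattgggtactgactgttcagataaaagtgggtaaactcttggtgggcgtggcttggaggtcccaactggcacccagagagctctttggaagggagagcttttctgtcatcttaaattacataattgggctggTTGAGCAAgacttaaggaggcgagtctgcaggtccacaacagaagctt
Sncg: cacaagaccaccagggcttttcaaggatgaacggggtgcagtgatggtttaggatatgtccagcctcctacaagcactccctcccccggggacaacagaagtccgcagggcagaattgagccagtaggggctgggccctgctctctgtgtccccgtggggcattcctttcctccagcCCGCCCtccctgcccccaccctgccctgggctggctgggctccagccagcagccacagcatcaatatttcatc
Plin1: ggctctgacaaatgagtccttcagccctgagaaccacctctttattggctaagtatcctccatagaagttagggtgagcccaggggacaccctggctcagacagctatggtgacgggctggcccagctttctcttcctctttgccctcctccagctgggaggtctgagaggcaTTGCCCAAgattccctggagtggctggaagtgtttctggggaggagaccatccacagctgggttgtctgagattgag

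These windows were searched on both strands for 4 motifs: the nuclear receptor recognition motif AGGTCA, the C/EBP site TTGCNNAA, the TATA box with letters TATAAA and the Sp1 motif GGGCGG, known as the GC box. The capitals mark 1 match to the C/EBP motif on the opposite strand in Ces1d, 48 bases before its start, 1 in Plin1, 77 bases before, and 1 GC box on the opposite strand in Sncg, 73 bases before. The C/EBP motif was present in 9.20% and the GC box in 32.4% of 27457 promoter windows of the same length. The nuclear receptor recognition motif, in 13.7% of windows, and the TATA box, in 13.1%, had no match in the 3 windows. A match is a description of the sequence, and binding was not measured.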

How the data were processed

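Total RNA of 24 tumours and 11 normal glands was read on RAE230A arrays, 1 array a sample. The deposited values are linear intensities, 1 for each of 15923 probe sets and each array, with a lowest value of 1 (0.648% of values). How the authors' software scaled them is not given in the sources used here. Array medians of 158 to 176 show that the values had been scaled.

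After 57 control probe sets were left out, 15866 were tested. Intensities were raised to a floor of 41.6, the 10th percentile of all values, and log2 was taken with no further scaling. Of these probe sets, 12783 carry 1 gene symbol, 312 several and 2771 none in the platform annotation, and of a gene with several probe sets the one with the highest mean was used. Symbols were checked through gene identifiers against RefSeq (12748 matched, 0 changed).

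The comparisons were fitted with limma 3.58.1 in R 4.3.3 (lmFit, and eBayes with its trend and robust options), and p-values were adjusted by the Benjamini-Hochberg method over all probe sets, with calls at an adjusted p under 0.05. Tumours were compared with normal glands, NewN glands with the other glands, and log2 Fabp4 or Plin1 was used as a covariate within tumours and within normal glands. Correlations used 100000 permutations, or all orders for 8 arrays, two-sided, and were adjusted over 24 relations (the 4 genes, Fabp4 or Plin1, over tumours, normal glands or NewN glands). The fits were tested on simulated data: changes of 1.5-fold were called for 76% of probe sets between tumours and normal glands and for 30% between NewN and other glands.

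The 4 genes and all gene lists were chosen with earlier results of these data known. The genes named were the 4, Fabp4 and Plin1, the 5 with the highest correlation to each, up to 4 with the largest called change of each related list and up to 3 of each marker list. Aoc1, Ces1e, Ces1c, Plin2, Sncb, Lep and Cd79b were named after their values had been seen. Of the marker lists not described beside a gene, 8 of 15 epithelial genes were higher in tumours and 0 lower, 1 of 8 macrophage genes was higher and 5 lower, 1 of 12 lymphocyte genes was higher and 8 lower, and 0 of 14 skeletal muscle genes were higher and 12 lower. Over all genes 31.4% were higher and 27.5% lower. The lymphocyte count depends on the lymphocyte-rich glands: without NewN4, NewN6 and X27.1N, 3 of the 12 were higher, 2 lower and 7 did not pass. Promoters came from a RefSeq table of GRCr8. Scaling, floor, brightness filter, spread model, array weights and left-out arrays were varied.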

Additional observations from a re-analysis of the deposited data

How the results depend on the processing

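The falls of the 4 genes kept their direction under every alternative run, with log2 changes of -7.18 to -5.48 for Aoc3, -10.15 to -4.52 for Trarg1, -5.54 to -4.61 for Ces1d and -4.97 to -4.29 for Sncg. Tumours against normal glands called 9238 probe sets. This was 4750 among probe sets above the median brightness (2077 higher, 2673 lower, so that the share higher was 43.7% in place of 56.7%), 2658 against the other glands alone (1073 higher, 1585 lower) and 8256 to 10801 under 11 other settings. Some tumours and glands share a number in the title, and the labels do not say whether these come from 1 animal. With that number as a random block 9442 were called, and with a fixed replicate block over X27, X27.1N, X28 and X28.1N 0 were called, as for the same 4 arrays without the block (0). Same-numbered pairs correlated by 0.186 and 0.251 in their deviations, and crossed pairs by 0.109 and 0.236.

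NewN against other glands called 3354, with 2038 among the brighter probe sets (1363 higher, 675 lower), 2056 with array weights (1295 higher, 761 lower) and 2511 to 3786 without each gland in turn. The differences of the 4 genes spanned -0.27 to 0.46 for Aoc3, -0.0509 to 1.07 for Trarg1, -0.28 to 0.60 for Ces1d and -0.0509 to 1.10 for Sncg without each gland in turn, and were -0.14 for Aoc3 and -0.0845 for Ces1d without NewN4, NewN6 and X27.1N. The log2 ratios to Plin1, an alternative chosen after seeing the data, kept their sign (-1.64 to -0.88 over all 4 genes).

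Fabp4 within tumours called 39, against 16 with the floor at the 5th percentile, 71 at the 20th, 2 with none, 10 among the brighter probe sets, 1 without the 2 farthest tumours, 71 without X22L and 0 without X15. Plin1 within tumours called 30, against 0, 67, 0, 6, 1, 53 and 14 in the same order. Fabp4 within normal glands called 1391, against 0 without the 2 farthest glands, 0 without NewN4, NewN6 and X27.1N, and 823 without X27.1N (433 positive, 390 negative). Plin1 within normal glands called 2110, against 18 without the 2 farthest, 949 in NewN glands alone (370 positive, 579 negative), 597 without the 3 glands (389 positive, 208 negative) and 329 without X27.1N (253 positive, 76 negative). Without the 3 glands the Plin1 slope was -0.0906 for Aoc3 and -0.0378 for Ces1d. The cause of these shifts was not tested. Leaving out X15 or X27.1N was chosen after seeing the data. Signals under the floor limit Trarg1, Ces1d, Aoc3, Fabp4 and Plin1 in tumours.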
